A study of Mus musculus with 16 samples.

Results

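The 8 genes described here serve drug and xenobiotic metabolism in mouse liver: the xenobiotic receptors Nr1i2 (PXR), Nr1i3 (CAR) and Ahr, their partner or upstream factors Rxra and Hnf4a, and Por, Alas1 and Cyp1a1 of the cytochrome P450 system. The rule that picks them is a list of names and uses no measured value, though the list was drawn up with earlier results of these data known. Each symbol matched 1 of the 78317 genes listed in the expression tables. All 8 passed the filter on low counts and were among the 14781 genes tested. Poly(A) RNA was sequenced from whole liver of wild-type C57BL/6J mice that arrived at 6 weeks of age and then ate 1 of 2 diets for 10 weeks. The normal diet (LabDiet 5053) drew 4.5% of its calories from fat and the high fat diet (D12492) drew 60%. The 2 diets are different products, so fat content cannot be told apart from any other difference between them. There were 4 groups of 4 libraries each: females on normal diet, females on high fat diet, males on normal diet and males on high fat diet. All animals were kept under 12 h of light per day, no group carried a transgene or a deletion, and every library has the same batch label. The labels do not say that the replicates are single mice rather than pools, so the p-values measure the spread between these samples. They do not give the hour of liver collection either.

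PXR and CAR are nuclear receptors that sense bile acids, steroids, drugs and other foreign compounds. Both bind DNA as heterodimers with the retinoid X receptor, of which RXR alpha (Rxra) is the main form in liver, and both switch on genes for P450 enzymes, conjugating enzymes and transporters. The aryl hydrocarbon receptor (Ahr) belongs to another protein family, binds planar aromatic ligands such as dioxin, and has Cyp1a1 as its classic target. HNF4 alpha (Hnf4a) is a nuclear receptor that sustains the hepatocyte gene programme, the genes for PXR and CAR included. A microsomal P450 enzyme needs electrons, which cytochrome P450 oxidoreductase (Por) passes on from NADPH, and haem, whose synthesis 5-aminolevulinate synthase 1 (Alas1) limits in liver.

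The promoter sequences of 4 of these genes are shown because the results below turn on Nr1i2, Por and Hnf4a, which were lower on high fat diet in both sexes, and on Cyp1a1, whose promoter holds the motif that the Ahr complex reads. Each is the stretch upstream of a RefSeq transcript start (build GRCm38.p6), written 5′ to 3′ on the strand of the gene and trimmed of bases that the GENCODE annotation places in an exon. Capitals mark the motifs found. Nr1i2 lies on the minus strand at chr16:38294825-38295074, Por on the plus strand at chr5:135688895-135689035, Hnf4a on the plus strand at chr2:163546943-163547154 (the more downstream of 2 starts in the table) and Cyp1a1 on the plus strand at chr9:57697363-57697612.
Nr1i2: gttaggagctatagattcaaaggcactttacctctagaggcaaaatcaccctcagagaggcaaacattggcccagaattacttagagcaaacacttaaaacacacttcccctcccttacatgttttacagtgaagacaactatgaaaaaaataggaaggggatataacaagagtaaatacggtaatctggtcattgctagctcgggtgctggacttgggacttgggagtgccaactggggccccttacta
Por: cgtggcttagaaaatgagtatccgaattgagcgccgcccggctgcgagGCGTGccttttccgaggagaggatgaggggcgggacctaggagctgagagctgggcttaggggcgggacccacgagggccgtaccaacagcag
Hnf4a: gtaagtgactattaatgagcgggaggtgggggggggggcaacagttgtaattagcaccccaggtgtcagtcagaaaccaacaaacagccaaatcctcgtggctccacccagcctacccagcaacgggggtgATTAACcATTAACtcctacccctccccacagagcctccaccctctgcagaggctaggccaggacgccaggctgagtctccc
Cyp1a1: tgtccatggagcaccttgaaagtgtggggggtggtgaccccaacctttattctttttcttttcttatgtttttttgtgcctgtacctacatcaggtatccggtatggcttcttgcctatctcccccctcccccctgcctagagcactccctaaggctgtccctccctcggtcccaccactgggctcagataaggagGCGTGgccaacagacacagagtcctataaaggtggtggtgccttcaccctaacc
Searched on both strands, the core of the dioxin response element, GCGTG, was found 54 to 50 bases before the Cyp1a1 start and 202 to 198 bases before the Por start. The Por window holds it again at 62 to 58 and 24 to 20 bases before the start, on the other strand and in the part trimmed as exonic. Of the 32851 mouse promoter windows of 250 bases in the table, 28.2% hold it. The Hnf4a stretch holds the HNF1 site hexamer GTTAAT on the other strand, at 81 to 76 and again at 74 to 69 bases before the start, and 6.43% of all windows hold that motif. None of the 7 motifs searched is in the Nr1i2 stretch: the others were the nuclear receptor hexamer AGGTCA (14% of windows), 2 direct copies of it spaced by 1 base (0.0335%), the HNF4 core CAAAGTCCA (0.384%), the E-box CACGTG (6.02%) and the D-box TTATGTAA (0.819%). These matches describe letters in a window, and none of the libraries measured binding there.

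When 1 gene is compared between libraries its level is given in CPM, counts per 1000000 after TMM scaling (edgeR's correction for library composition). When genes are compared with each other it is given in TPM, transcripts per 1000000, which accounts for transcript length. Library totals ran from 22228115 to 41420589 expected counts, so 7 of the 8 genes rest on at least 1180 counts in every library, and Cyp1a1 on 6 to 42. Replicate 1 of the females on high fat diet stood apart for these genes: it was the lowest of its 4 libraries for 8 of the 8, and the lowest for 37.1% of all tested genes. Replicates 2 and 3 of the males on high fat diet were closer to each other than any other pair within a group, with a chi-square of 4.07 per gene against 20.9 or more within the other groups. The effect of leaving out or averaging these libraries is given beside the results where it matters. Hepatocyte markers were high in every library, with a summed level of 74023 to 134149 TPM over 12 genes.

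By TPM, Por and Alas1 had the highest group means in all 4 groups. In females on normal diet Por led with 364 ± 30.8 TPM (SD, n = 4), followed by Alas1 with 303 ± 53.7, Hnf4a with 153 ± 7.71, Nr1i3 with 148 ± 17.6, Rxra with 63.3 ± 8.83, Nr1i2 with 49.4 ± 4.38, Ahr with 11.7 ± 1.5 and Cyp1a1 with 0.378 ± 0.149. In that group the libraries of 3 neighbouring pairs overlapped, Por with Alas1, Hnf4a with Nr1i3, and Rxra with Nr1i2. In males on normal diet Alas1 came first, with 355 ± 61.9 TPM against 298 ± 28.5 for Por, and their libraries overlapped. Males on high fat diet kept that order, and there the Alas1 libraries (261 to 327 TPM) lay above those of Por (170 to 211 TPM). In females on high fat diet Por (240.3 ± 45.2 TPM), Alas1 (202 ± 87.3), Nr1i3 (153 ± 36.5) and Hnf4a (120.1 ± 14.0) each overlapped with the next. In replicate 1 of that group Alas1, at 92.7 TPM, was below Nr1i3 (101.6) and Hnf4a (103). The lower end was the same in all 4 groups: Rxra, then Nr1i2, then Ahr, then Cyp1a1.

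**Figure D1:**
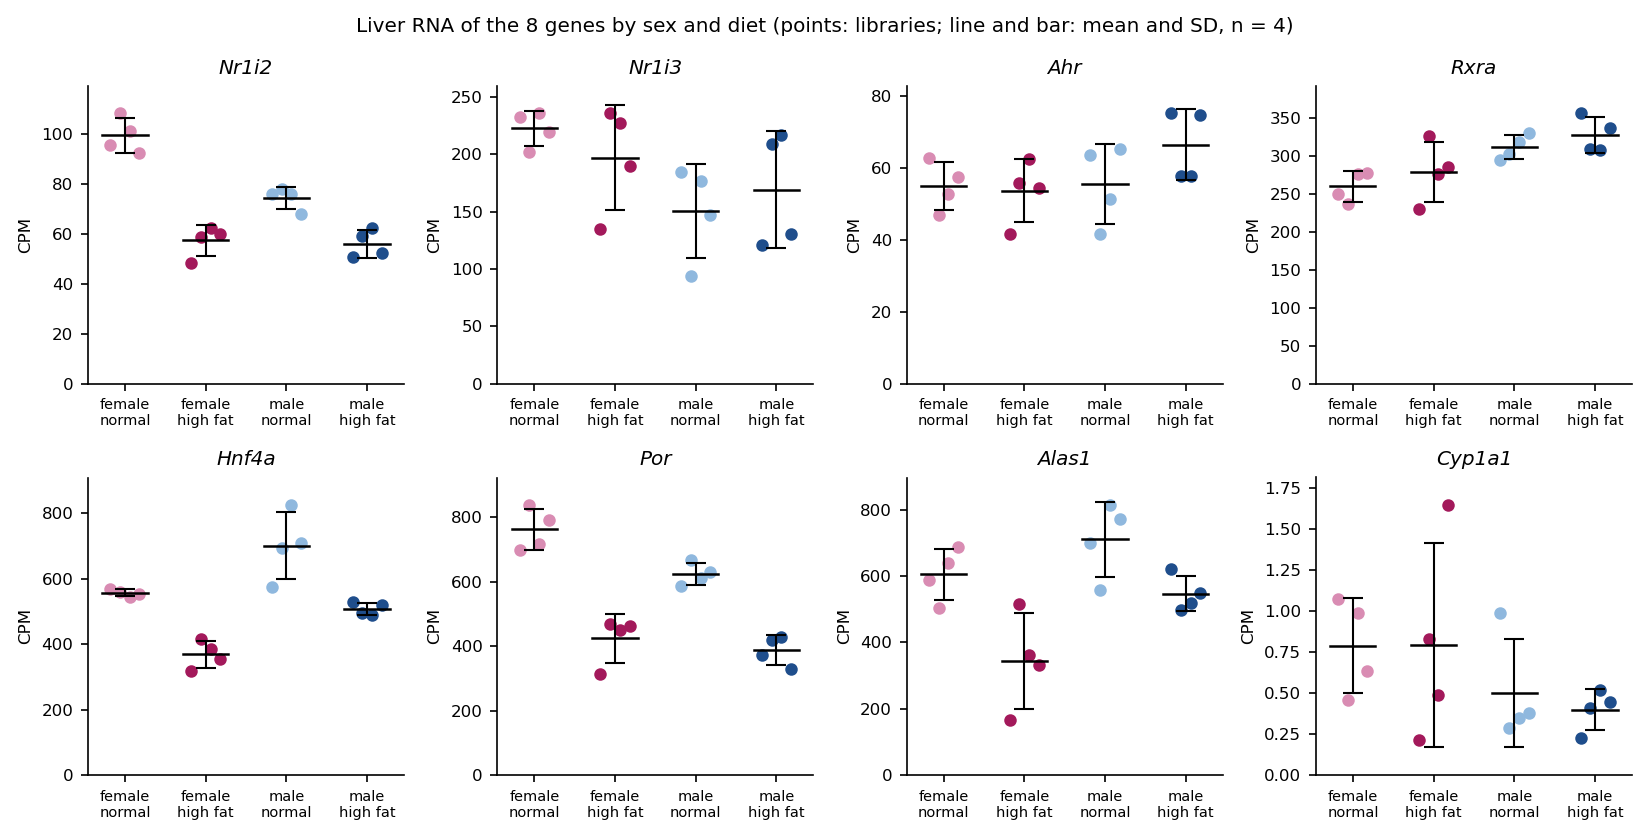
Level of each of the 8 genes in CPM (vertical axis, from 0, its own scale per gene) in the 4 groups; points are libraries, the line and bar are the mean and SD of 4. Nr1i2, Hnf4a and Por have no high fat library above the lowest normal diet library of the same sex. Nr1i3, Ahr, Rxra, Alas1 and Cyp1a1 overlap between diets in both sexes.

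The first question was which of these genes differed between the diets within each sex. In females 4 of the 8 fell on high fat diet (Nr1i2, Hnf4a, Por and Alas1) and none rose; over all tested genes 11.5% were called, 5.74% higher and 5.76% lower. In males 3 of the 8 fell (Nr1i2, Hnf4a and Por) and none rose, beside 11.4% of all genes called, 6.03% higher and 5.36% lower. The 3 genes that fell in both sexes compare with 1.78% of tested genes that did so. The median log2 fold change of the 8 was -0.39 in females and -0.34 in males, against 0.00 and 0.01 over all tested genes. A gene was called when edgeR's quasi-likelihood test over all genes gave an adjusted p under 0.05.

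Nr1i2 (ENSMUSG00000022809.5), the gene of PXR, had 95.8, 108, 101 and 92.6 CPM in the 4 females on normal diet and 48.5, 58.7, 62.5 and 60.2 CPM in the 4 on high fat diet. Every high fat library was below every normal diet library. The mean went from 99.5 ± 6.94 to 57.5 ± 6.18 CPM (SD, n = 4), a log2 fold change of -0.79 ± 0.10 (SE; adjusted p = 0.000109), so that 57.7% of the control level remained. Males started lower, with 75.8, 77.9, 76.1 and 67.8 CPM on normal diet, and had 50.6, 59.3, 62.4 and 52.2 CPM on high fat diet. Here too the diets did not overlap, and the fold change was -0.41 ± 0.10 (adjusted p = 0.0143), with 75.5% of the control level remaining. The high fat means were close, at 57.5 ± 6.18 CPM (females) and 56.1 ± 5.61 CPM (males). The difference between the fall in females and the fall in males was -0.39 ± 0.14 on the log2 scale; its p was 0.0141 for this gene alone and 0.256 after adjustment over all genes, so a sex difference in the fall was not called.

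Nr1i3 (ENSMUSG00000005677.15), the gene of CAR, varied widely within groups and was not called in either sex. Females had 232, 202, 236 and 219.7 CPM on normal diet and 135, 236, 227 and 189.7 CPM on high fat diet. Of the high fat libraries 2 lay within the control range and 2 below it, and the fold change of -0.18 had a 95% interval from -0.65 to 0.30 (adjusted p = 0.655). Males had 185, 93.8, 177 and 147 CPM on normal diet and 120.4, 209, 217 and 130.1 CPM on high fat diet, a fold change of 0.17 with an interval from -0.31 to 0.64 (adjusted p = 0.671). The higher pair among the high fat males is the near-identical pair of libraries. In the GENCODE annotation of the mouse genome 3304 exon bases of Nr1i3 are shared with Tomm40l, a gene on the other strand. The labels do not state strand-specific counting, so reads of the 2 genes over those bases may not be told apart; Tomm40l was itself listed at 34.9 to 44.4 CPM in the group means and was not called for diet.

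Ahr (ENSMUSG00000019256.18) had 62.5, 46.9, 52.5 and 57.5 CPM in females on normal diet and 41.5, 55.8, 62.4 and 54.3 CPM in females on high fat diet. Group means were 54.9 ± 6.71 and 53.5 ± 8.75 CPM (SD, n = 4), and the fold change of -0.04 had an interval from -0.36 to 0.29 (adjusted p = 0.905). In males the libraries had 63.5, 41.5, 51.3 and 65.1 CPM on normal diet and 75.1, 57.8, 57.7 and 74.6 CPM on high fat diet. The ranges overlapped, with a fold change of 0.26 and an interval from -0.06 to 0.58 (adjusted p = 0.287).

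Rxra (ENSMUSG00000015846.17), the dimer partner of both PXR and CAR, was not called for diet. Females had 249, 236, 276 and 277 CPM on normal diet and 229.8, 327, 276 and 285 CPM on high fat diet (fold change 0.10 ± 0.11, interval -0.13 to 0.34, adjusted p = 0.584). Males had 295, 302, 319 and 330.1 CPM on normal diet and 357, 309, 308 and 337 CPM on high fat diet (0.07 ± 0.11, interval -0.16 to 0.31, adjusted p = 0.712). Across all 16 libraries Rxra spanned a ratio of 1.55 from lowest to highest, the smallest of the 8 genes.

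Hnf4a (ENSMUSG00000017950.17) was tightly grouped in females on normal diet, at 569, 561, 546 and 553 CPM, and lay at 319, 417, 386 and 353 CPM on high fat diet. No library crossed, and the mean fell from 557 ± 10.1 to 369 ± 42.4 CPM, a log2 fold change of -0.60 ± 0.12 (adjusted p = 0.00331). Males had 576, 693, 827 and 710.3 CPM on normal diet and 528, 496, 488 and 519 CPM on high fat diet. The diets did not overlap in males either, and the fold change was -0.47 ± 0.11 (adjusted p = 0.0139). The call in males was lost without replicate 3 of the normal diet males, the highest library (-0.38, adjusted p = 0.0582). The fall did not differ between the sexes beyond its error (difference -0.13 ± 0.16, interval -0.47 to 0.21, adjusted p = 0.792).

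Por (ENSMUSG00000005514.15), the microsomal reductase that serves the drug-metabolising P450 enzymes, fell in both sexes. Females had 699, 839, 717 and 791 CPM on normal diet and 312, 468, 450.2 and 464 CPM on high fat diet. Males had 587, 666, 611 and 630.2 CPM on normal diet and 371, 419, 429 and 328 CPM on high fat diet. In both sexes the highest high fat library was below the lowest control. The mean fell from 761 ± 65.0 to 423 ± 74.8 CPM in females (log2 fold change -0.85 ± 0.13, adjusted p = 0.000619), which left 55.6% of the control level. In males it fell from 624 ± 33.4 to 387 ± 46.6 CPM (-0.69 ± 0.13, adjusted p = 0.00282), which left 62.0%. The difference between the sexes was -0.16 ± 0.19 (interval -0.55 to 0.23, adjusted p = 0.775).

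Alas1 (ENSMUSG00000032786.17) had 588, 504, 638 and 687 CPM in females on normal diet and 165, 515, 362 and 333 CPM on high fat diet. Replicate 1 of the high fat females was far below its group and replicate 2 lay within the control range, so the diets overlapped. The fold change was -0.81 ± 0.23 (adjusted p = 0.0318), and -0.58 (adjusted p = 0.0368) without replicate 1. The call was lost in 4 of the 8 fits that left out 1 female library. In males the libraries had 699, 557, 815 and 771 CPM on normal diet and 619.7, 498, 519.8 and 549 CPM on high fat diet, with a fold change of -0.38 ± 0.23 (interval -0.87 to 0.11) that was not called (adjusted p = 0.305). The female and male changes were not called different (-0.43 ± 0.33, adjusted p = 0.623). An antisense gene, 4930500F10Rik, shares 465 exon bases with Alas1 and did not exceed 0.866 CPM in any library. This scarce gene also fell in high fat females (-1.65 ± 0.42, adjusted p = 0.0172) and was not called in males (-1.13 ± 0.39, 0.0679).

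Cyp1a1 (ENSMUSG00000032315.7), an inducible P450 enzyme, was near the lower limit of these libraries in every group. Females had 1.08, 0.46, 0.988 and 0.633 CPM on normal diet and 0.211, 0.827, 0.486 and 1.65 CPM on high fat diet. Males had 0.988, 0.285, 0.346 and 0.379 CPM on normal diet and 0.223, 0.407, 0.515 and 0.443 CPM on high fat diet. A diet change was not detected in these libraries, where counts were low and varied widely within groups. The fold change was 0.00 in females (interval -1.09 to 1.09) and -0.30 in males (interval -1.48 to 0.89).

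**Figure D2:**
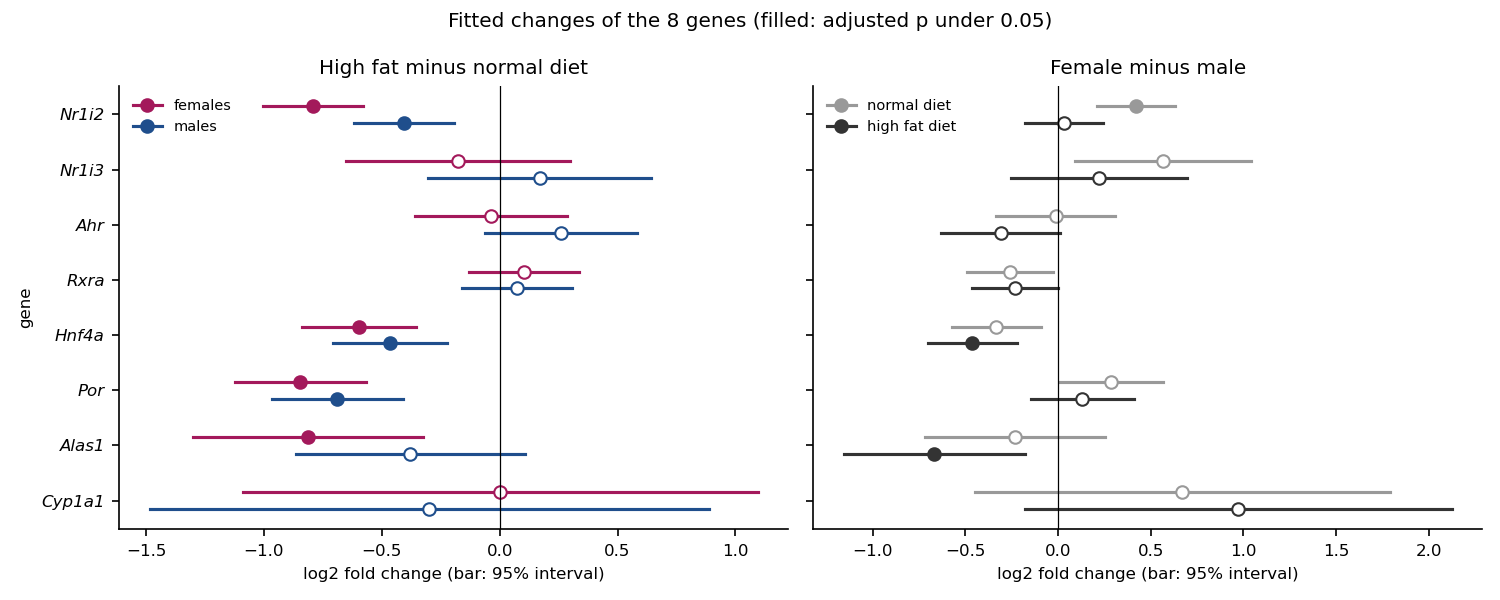
Log2 fold change (horizontal axis) of each gene with its 95% interval, high fat minus normal diet on the left and female minus male on the right; filled points passed an adjusted p of 0.05. On the left Nr1i2, Hnf4a and Por are filled in both sexes and Alas1 in females; on the right only Nr1i2 on normal diet and Hnf4a and Alas1 on high fat diet are filled.

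For all genes together, 3 of the 8 (Nr1i2, Hnf4a and Por) had every high fat library below every normal diet library in females, beside 9.55% of tested genes, and the same 3 did so in males, beside 9.13%. None of the 8 had a diet change that was called different between the sexes, beside 0.677% of tested genes. At an unadjusted p under 0.05 only Nr1i2 passed that interaction test, and no alternative setting called any of the 8. Without replicate 1 of the high fat females the falls in females were -0.72 for Nr1i2 (adjusted p = 0.000276), -0.53 for Hnf4a (0.0106) and -0.72 for Por (0.00109), and the same 4 genes were called. With the near-identical pair of high fat males averaged into 1 library, the same 3 genes were called in males.

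The second question was whether the sexes differed on the same diet. On normal diet 1 of the 8 was called, Nr1i2, which was higher in females (99.5 ± 6.94 against 74.4 ± 4.47 CPM, log2 difference 0.42 ± 0.10, adjusted p = 0.00908). Of all tested genes 15.7% were called, and 7.03% were called in that direction. The female and male libraries did not overlap for 5 of the 8, beside 22% of tested genes: Nr1i2, Nr1i3 and Por lay higher in females and Rxra and Hnf4a lower. Of these the differences of Nr1i3 (0.57 ± 0.23, adjusted p = 0.0972), Por (0.29 ± 0.13, 0.145), Rxra (-0.26 ± 0.11, 0.116) and Hnf4a (-0.33 ± 0.11, 0.0568) did not pass. On high fat diet 2 of the 8 were lower in females, Hnf4a (369 ± 42.4 against 508 ± 18.8 CPM, -0.46 ± 0.11, adjusted p = 0.00942) and Alas1 (344 ± 144 against 546 ± 53.1 CPM, -0.67 ± 0.23, 0.0497). There 20.4% of all genes were called, 11.6% lower in females. Only Hnf4a had libraries of the sexes apart, beside 22.7% of tested genes. The Alas1 difference was called in 2 of 18 alternative settings and became -0.44 (adjusted p = 0.0838) without replicate 1 of the high fat females. Nr1i2 did not differ between the sexes on high fat diet beyond its error (0.03, interval -0.18 to 0.24).

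The genes also differed in how much they varied between libraries of one group. The SD of log2 CPM within groups was 0.13 for Nr1i2, 0.13 for Rxra, 0.14 for Hnf4a and 0.18 for Por, all below the median of tested genes, 0.26. It was 0.24 for Ahr, 0.37 for Nr1i3, 0.38 for Alas1 and 0.74 for the sparsely counted Cyp1a1.

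Likeness of profiles was measured as the root mean square difference between standardised log2 CPM over the 16 libraries, which is 0 for identical profiles and about 1.37 for unrelated ones. Nr1i2 and Por differed by 0.300, and of all tested genes none was nearer to Nr1i2 than Por was, while 1 gene was nearer to Por. When each library was left out in turn the value stayed between 0.242 and 0.324, with at most 1 gene nearer to Nr1i2 and at most 3 nearer to Por. Both genes share the order of the group means, highest in females on normal diet, then males on normal diet, then both high fat groups. With group means removed the difference was 0.662 and 115 genes were nearer to Nr1i2, so much of the likeness lies between the groups. These points share libraries and scaling, and the measure is a description.

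**Figure D3:**
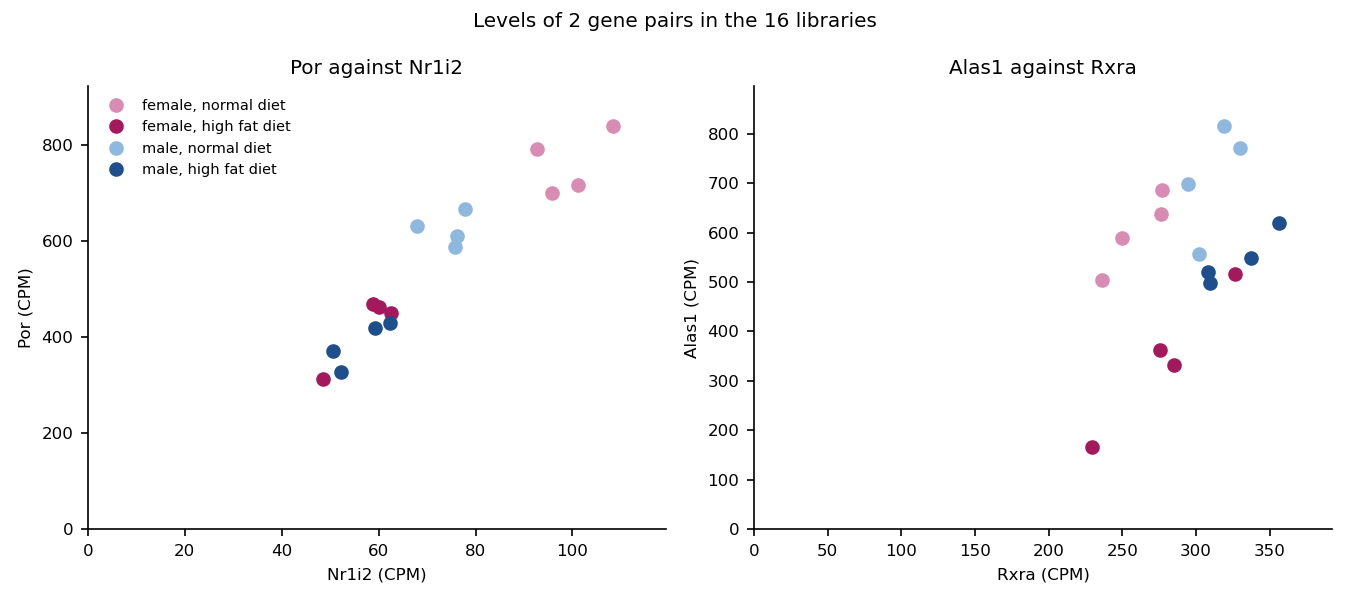
Por against Nr1i2 (left) and Alas1 against Rxra (right), both axes in CPM from 0, 1 point per library, coloured by group. On the left the groups follow one line from 312 CPM of Por at 48.5 CPM of Nr1i2 to 839 at 108; on the right 3 of the 4 high fat females have less Alas1 than every other library, and the fourth lies among the high fat males.

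The genes nearest to Nr1i2 outside the 8 were Nampt (0.316), which makes the NAD precursor nicotinamide mononucleotide, Paics (0.338) of purine synthesis, and Idh1 (0.353), the cytosolic isocitrate dehydrogenase that yields NADPH. Paics (0.273) and Nampt (0.313) were also nearest to Por, followed by the endothelial lipase gene Lipg (0.315). Nearest to Hnf4a were Nufip2 (0.283), Zfp326 (0.309) and Ric8b (0.310), and nearest to Alas1 were Senp2 (0.314), Atp6v0a2 (0.322) and Atg2b (0.335). Among the 8, Alas1 and Hnf4a were the next most alike pair (0.514). Rxra and Alas1 differed by 0.926 over all libraries but by 0.430 with group means removed, with 1 gene nearer to Rxra and 4 nearer to Alas1. Leaving out single libraries moved this within-group value from 0.392 to 0.562, with up to 68 genes nearer to Rxra.

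Partners and targets of the receptors were read from gene lists. Of 27 CAR and PXR target genes 9 fell and 0 rose in females on high fat diet, and 6 fell and 1 rose in males, with medians of -0.70 and -0.14. Of all tested genes 5.76% fell and 5.74% rose in females, and 5.36% fell and 6.03% rose in males. The 3 with the smallest p were the same in both sexes. Ces2a, a carboxylesterase, fell from 318 ± 25.4 to 102 ± 3.07 CPM in females (-1.65 ± 0.14, adjusted p = 3.57e-06) and from 435 ± 37.5 to 90.4 ± 20.7 in males (-2.26 ± 0.14, 1.71e-08). Cyp2c55, a P450 enzyme, fell by 2.81 and 3.80 on the log2 scale in females and males, and Gstm3, a glutathione transferase, by 1.32 and 2.14. Levels of Cyp2c55 were low, going from 6.37 ± 1.91 to 0.908 ± 0.196 CPM in females. In males they went from 11.6 ± 1.34 to 0.816 ± 0.294 CPM. The 1 gene that rose in males was Cyp2b9, named after its value was seen; it went from 0.645 ± 0.728 to 50.5 ± 52.6 CPM. Of the 8 tested partners and targets of Ahr, none was called in either sex (medians 0.05 and -0.11), Cyp1a2 included (-0.60 ± 0.28, adjusted p = 0.173 in females).

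The counts of the next 3 lists stand beside 11.5% (females) and 11.4% (males) of all tested genes called. Of 13 tested RXR forms and partner receptors, 2 rose and none fell in each sex, with medians of -0.01 and 0.28. That number is near the share over all genes. Rxrg, the scarce gamma form of RXR, rose in both sexes (3.88 ± 0.868 to 6.08 ± 1.05 CPM in females, adjusted p = 0.0448; 2.73 ± 0.405 to 4.58 ± 1.13 in males, 0.0257). Thra, a thyroid hormone receptor, rose in females (0.79 ± 0.15, 0.00271), and Pparg, the receptor best known from fat cells, rose in males (0.93 ± 0.27, 0.0353). Of 17 hepatocyte transcription factors around Hnf4a, 5 rose and 3 fell in females and 0 rose and 1 fell in males. Their median log2 fold changes were 0.35 in females and 0.10 in males. All 3 that fell in females are named here, but only 1 of the 5 that rose. Cebpb (-1.15 ± 0.21, 0.00218) and Cebpd (-0.99 ± 0.24, 0.0128) fell and Nr2f2 rose (0.50 ± 0.10, 0.00572) in females, and the liver factor Foxa3 fell in males (-1.25 ± 0.22, 0.00214) and females (-0.84 ± 0.22, 0.0247). Of 16 coregulators and chaperones, none was called in females and 3 fell in males: the cytosolic HSP90 genes Hsp90ab1 (-0.69 ± 0.12, 0.00118) and Hsp90aa1 (-1.08 ± 0.22, 0.00519) and their cochaperone gene Ptges3 (-0.34 ± 0.09, 0.0195). HSP90 holds unliganded Ahr and CAR in the cytosol.

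Of 17 other haem genes 1 rose and 1 fell in each sex, beside the 11.5% (females) and 11.4% (males) of all tested genes that were called. In females Uros rose (0.45 ± 0.14, adjusted p = 0.0438) and Fech, which inserts iron in the last step, fell (-0.30 ± 0.09, 0.0452). In males Slc25a38, a mitochondrial glycine carrier, fell (-0.50 ± 0.13, 0.0214). Clpx, part of a mitochondrial protease that acts on ALAS1 protein, rose from 89.7 ± 12.4 to 210.0 ± 27.1 CPM in males (1.23 ± 0.14, 4.02e-05). Its change in females was 0.20 ± 0.14 (0.366), and the difference between the sexes was called (-1.03 ± 0.19, 0.0155). Of 9 tested electron donors and P450 partners other than Por, 1 fell in each sex, the haem-binding Pgrmc1 in females (-0.46 ± 0.15, 0.0475) and Cyb5r1 in males (-0.86 ± 0.25, 0.0324). Several of the calls from these lists lie near the threshold. Under 18 alternative settings Pgrmc1 was called in 3, Fech in 5, and Uros and Cyb5r1 in 10. Rxrg was called in 9 (females) and 11 (males), Pparg in males in 7, and Foxa3 in females in 7.

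**Figure D4:**
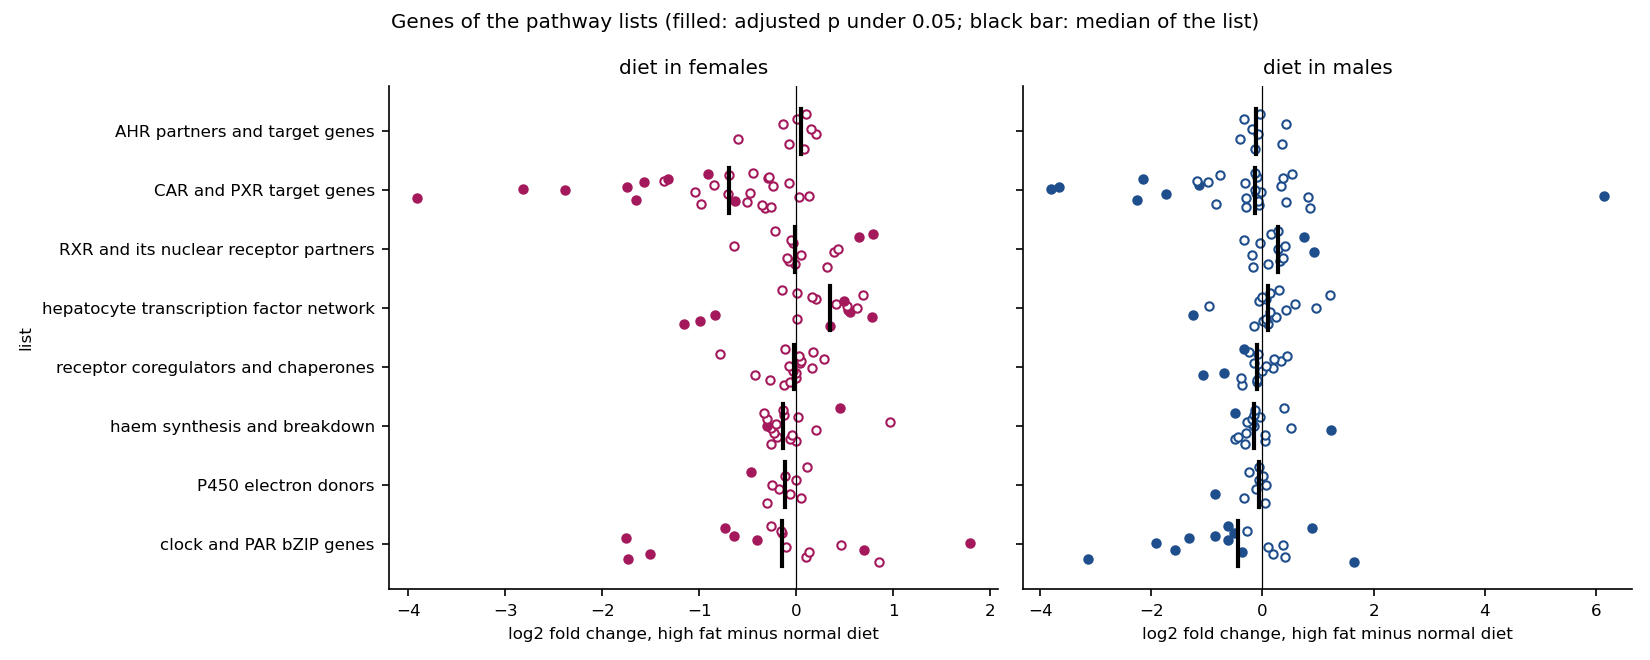
Log2 fold change on high fat diet (horizontal axis) of every tested gene of the 8 lists, females left and males right; filled points passed an adjusted p of 0.05 and the black bar is the median of the list. The CAR and PXR targets reach furthest to the left in both sexes, and no Ahr partner or target is filled.

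Por and Alas1 serve many P450 enzymes, so their TPM was also set against the summed TPM of the 80 Cyp1 to Cyp4 genes. The comparison was chosen after the values had been seen, and P450 genes of other families were not in the sum. That sum was 31306 ± 1121 TPM in females on normal diet and 26610 ± 4371 on high fat diet, and 22548 ± 1534 and 17237 ± 2994 in males (two-sided exact permutation p = 0.0286 in each sex, the smallest that 4 against 4 allows, 0.0571 adjusted over 6 tests). Por equalled 1.16 ± 0.0778% of the sum in females on normal diet and 0.903 ± 0.0876% on high fat diet (exact permutation p = 0.0286, adjusted 0.0571). In males it was 1.33 ± 0.212% and 1.14 ± 0.120% (exact permutation p = 0.143, adjusted 0.171). Alas1 equalled 0.963 ± 0.142% and 0.736 ± 0.241% in females (exact permutation p = 0.114) and 1.57 ± 0.224% and 1.74 ± 0.482% in males (exact permutation p = 0.629). After adjustment no ratio passed, but with so coarse a test over 6 comparisons this says little. In females the Por ratio was 0.816 to 1.02% on high fat diet and 1.06 to 1.24% on normal diet, without overlap.

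Clock genes and some genes of the cell type marker lists moved with diet in the same libraries. Of 16 clock and PAR bZIP genes, 2 rose and 6 fell in females and 2 rose and 9 fell in males. Counts of clock genes and markers stand beside 11.5% (females) and 11.4% (males) of all tested genes called. Nr1d1 (REV-ERB alpha), a repressor of the clock loop, rose in females (13.3 ± 4.38 to 46.3 ± 8.93 CPM, adjusted p = 7.60e-05) and fell in males (23.6 ± 5.57 to 6.28 ± 0.620 CPM, 5.68e-05). Dbp, an output gene of the clock, also rose in females (0.70 ± 0.19, 0.0263) and fell in males (-1.57 ± 0.20, 0.000115). Per1 fell in females (-1.75 ± 0.31, 0.00278) and in males (-1.32 ± 0.30, 0.0114), as did Per2 (-0.65 ± 0.13, 0.00347, and -0.86 ± 0.13, 0.000325). Cry1 fell in females (-1.50 ± 0.22, 0.00035) and was not called in males (0.20 ± 0.21, 0.587). The marker sums that follow are in TPM without TMM scaling, while the calls rest on scaled counts. With log2(TPM + 1) the median diet change of all genes was 0.17 in females and 0.05 in males. Sums compared between diets carry this shift as well. Kupffer cell markers (8 genes) summed to 336 to 530 TPM in high fat females against 182 to 259 TPM in their controls, with 2 called higher, and to 151 to 314 against 154 to 266 TPM in males, with 0 called. Of 7 stellate cell markers 3 were called higher in females and 0 in males, with sums of 208 to 230.0 against 189 to 207 TPM and of 159 to 212 against 128 to 147 TPM. Hepatocyte markers summed to 112069 to 134149 TPM in high fat females against 110239 to 125606 TPM, with 2 of 12 called lower, and to 74023 to 89430 TPM in high fat males against 87966 to 105419 TPM, with 3 of 12 called lower. Of 5 adipocyte markers 2 were tested and 1 was called higher in males, with sums of 1.31 to 20.8 TPM on high fat diet against 0.82 to 2.52 TPM. None was called in females. The highest sums, 20.2 and 20.8 TPM, were those of the near-identical male pair. Apart from Cfd, which reached 20.1 TPM, no gene of this list exceeded 1.77 TPM. Both tested genes of 6 intestinal markers were called higher in each sex, led by the fatty acid binding protein gene Fabp2. The intestinal genes Cdx2 and Alpi were at 0 in all 16 libraries. With them, 4 of the 6 stayed under 1 TPM throughout, and whether the rise stands for intestinal cells was not tested. The part of clock genes and of these cell markers in the falls of Nr1i2, Hnf4a, Por and Alas1 was not tested, and in whole liver fewer cells of a type and less RNA per cell cannot be told apart.

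Por was called in all 18 alternative settings in both sexes, with log2 fold changes from -0.90 to -0.62 in females and from -0.74 to -0.60 in males. Nr1i2 was called in 18 of 18 in females (-0.83 to -0.54) and 15 of 18 in males (-0.46 to -0.31). Hnf4a was called in 17 of 18 in females (-0.66 to -0.35) and 14 of 18 in males (-0.56 to -0.37). Alas1 was called in 8 of 18 in females (-1.08 to -0.58) and in none in males (-0.48 to -0.28).

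**Figure D5:**
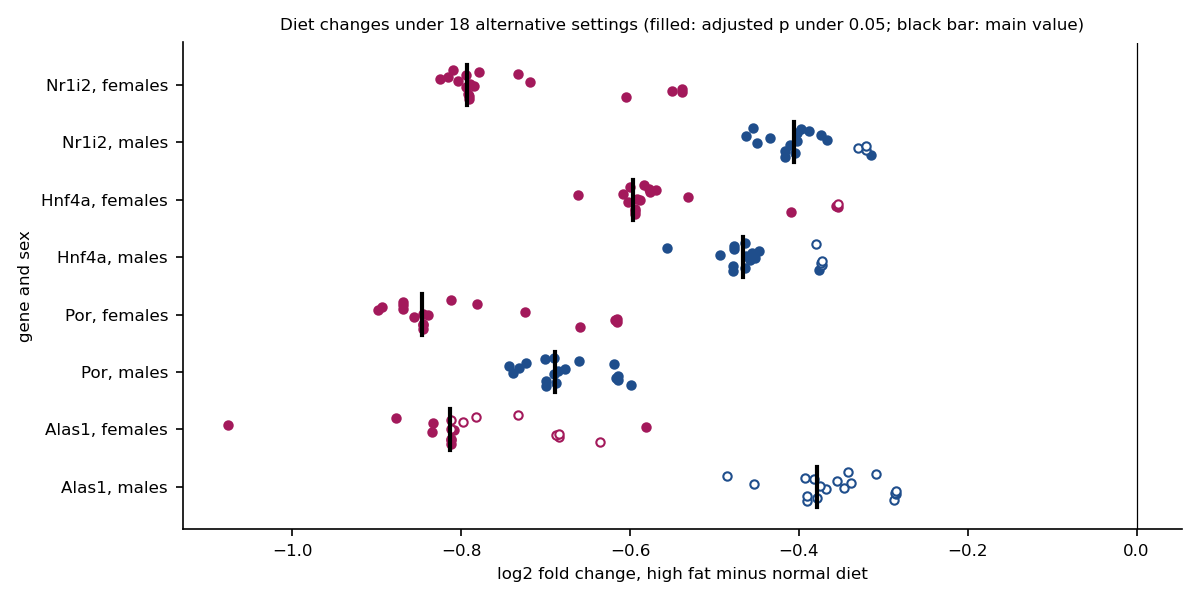
Log2 fold change on high fat diet (horizontal axis) of the 4 genes called in at least 1 sex under 18 alternative settings, 1 point per setting, filled where the adjusted p was under 0.05; the black bar is the main value. Every point lies below 0; all points of Por are filled in both sexes, and 8 of 18 are filled for Alas1 in females.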

How the data were processed

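Poly(A) RNA of 16 whole-liver libraries was analysed, 4 per group of sex and diet. Per the submitters' processing notes the authors used STAR and RSEM with build GRCm39; versions and strand setting are not given in the sources used here. The authors deposited RSEM expected counts, of which 4.89% of entries are not whole, and RSEM TPM per gene and library. The expected counts were rounded and tested with edgeR 4.0.16 (R 4.3.3; quasi-likelihood test, robust fit, TMM scaling, filter by group, 1 mean per group over all 16 libraries). The 14781 genes kept hold 99.94% of counts. P-values are two-sided and Benjamini-Hochberg adjusted over all of them, with a threshold of 0.05; intervals are 95%. Ratios of TPM used exact permutation tests. Symbols were assigned by gene ID, with RefSeq synonyms as a fallback. Promoters came from RefSeq and exon overlaps from GENCODE, both on GRCm38, so no gene coordinates of the expression tables are printed. Named beside the 8 genes are, per list and diet contrast, the called genes with the smallest p (at most 3), and the 3 genes most like each called gene. The 8 genes and the lists were chosen with earlier results of these data known. Simulated counts for the diet contrast in females (14547 genes, 100 changed per fold size) gave back 39% of 1.5-fold and 90% of 2-fold changes, with 5.15% of calls false. The changed genes were drawn above a floor of expression, so these rates do not cover scarce genes such as Cyp1a1. No other difference between the groups was put in. Alternatives were DESeq2 1.42.0, limma 3.58.1 on log2(TPM + 1) and log2(TPM + 0.1), other scaling, no filter, a replicate block, the near-identical male pair averaged, only the groups compared, and each library left out.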

Additional observations from a re-analysis of the deposited data

Results flagged for a closer look

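In 2 of 40 groups of 4 libraries examined for a library far from the others, 1 library stood apart; chance flags about 1 in 20 groups. Por had 311.9 CPM in replicate 1 of the females on high fat diet, below the 450.2 to 468 CPM of the other libraries. Cyp1a1 had 0.988 CPM in replicate 1 of the males on normal diet, above the 0.285 to 0.379 CPM of the others.

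The diet change differed between females and males, by an interaction term, for 4 of the genes named from the lists. The female change minus the male change was -1.03 for Clpx, -1.70 for Cry1, 3.71 for Nr1d1 and 2.27 for Dbp on the log2 scale, with adjusted p = 0.0155, 0.0112, 5.54e-06 and 0.000837. None of the 8 genes of the report was among them.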

How the results depend on the processing

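No called value changed sign under any alternative; values not called in either fit did in 34 pairs of a gene's contrast and a setting. Of the 8 genes, 4 stayed called for diet in females with size factors, DESeq2, the replicate block and the averaged pair, 3 (without Alas1) without scaling, without the filter, with log2(TPM + 1), with log2(TPM + 0.1) and with only those groups, and 2 (Nr1i2 and Por) with log2(TPM + 1) and no filter. In males 3 stayed called in every fit to counts that left out no single library, and 1, Por, in each of the 3 TPM fits. The sex difference on normal diet was called for 2 with DESeq2 (adding Hnf4a) and for 2 with only those groups (adding Nr1i3). The sex difference on high fat diet was called for 1 with size factors, no scaling, no filter, the replicate block, the averaged pair or only those groups, and for 0 with the TPM fits. Counts over all genes moved by over 1.5 times as follows: diet in females 2690 without scaling and 2582 with log2(TPM + 1); diet in males 770 with log2(TPM + 1) and no filter; interaction 341 with DESeq2, 40 with log2(TPM + 1) and no filter, and 58 with the averaged pair; sex on normal diet 1033 with log2(TPM + 1) and no filter; sex on high fat diet 1958 with only those groups. The median of all genes moved from 0.00 to 0.19 in females and from 0.01 to 0.10 in males without scaling, and to 0.17 and 0.20 in females with log2(TPM + 1) and log2(TPM + 0.1). Relative to it Nr1i2, Hnf4a and Por changed by -0.80, -0.60 and -0.85 in females without scaling. Genes called higher and lower were 848 and 852 in females, 2318 and 372 without scaling and 2308 and 274 with log2(TPM + 1). They were 891 and 793 in males, 1358 and 472 without scaling and 807 and 432 with log2(TPM + 1), and for sex on high fat diet 1306 and 1716, 2318 and 1048, and 2673 and 668. For the interaction they were 39 and 61, 70 and 48, and 54 and 32. In males Nr1i2 and Hnf4a had adjusted p = 0.0529 and 0.0608 with log2(TPM + 1).

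Leaving out 1 library gave 947 to 1647 genes and 3 to 4 of the 8 for diet in females, 1113 to 1912 and 2 to 3 in males, 51 to 176 and 0 to 0 for the interaction, 1325 to 2488 and 1 to 2 for sex on normal diet, and 1974 to 3019 and 1 to 2 for sex on high fat diet. Whether replicate numbers pair the samples is not settled. Same-numbered libraries had correlations of -0.16 to 0.18 (median 0.04) over 24 pairs, 4 of them over 0.1. Pairs of unlike number had -0.27 to 0.19 (median -0.02) over 72 pairs, 9 of them over 0.1. Of 16 libraries 5 correlated best with their own number. Such small correlations cannot exclude a pairing. With the replicate block 1864, 1980, 101, 2685 and 3445 genes were called for the 5 contrasts, beside 1700, 1684, 100, 2322 and 3022 without it. Of the 8 genes only Cyp1a1 had low counts, 6 to 42 per library.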
